A study of Ovis aries with 6 samples.

Results

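Sheep fat around the kidney held 11594 stretches of lowered CpG methylation that were listed in fetuses and in lambs and lay within 5 kb of a stretch listed as unmethylated. The authors deposited, for each stage, a list of low-methylated regions (LMRs, 5 to 29 CpGs each) and a list of unmethylated regions (UMRs, at least 30 CpGs each). The autosomal LMRs of both stages, 108524 fetal and 103520 lamb regions, were merged where they overlapped or touched, which gave 136802 merged LMRs. A merged LMR was kept when it held a region of each list, shared no base with a UMR of either stage and had its nearest edge within 5 kb of a UMR of either stage. The 11594 regions kept, 8.48% of the merged LMRs, are called near LMRs below. The 62600 LMRs of both stages that lay over 5 kb from any UMR, called far LMRs, are the set they are compared with.

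Whole-genome bisulfite sequencing gave, for each CpG, the share of reads in which the cytosine had stayed protected, taken as its methylation level. The 6 animals were pure-bred Merino sheep, labelled wild type and untreated. The 3 fetuses, whose fat carries the label brown adipose, were sampled 132 days after conception (term, 150 days). The 3 lambs, whose fat carries the label white adipose, were 89 days old by the sample labels and 80 days by the text on the design. Each fetus and each lamb came from a different ewe. The animals' description codes end in TV for the fetuses and in VEH for the lambs, so any meaning of these codes and the stage cannot be told apart. No cell type was sorted and DNA methylation offers no marker list here, so the tissue label was not checked against cell markers. In bulk tissue a change in the mix of cells and a change within cells cannot be told apart.

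CpGs in mammalian genomes are mostly methylated, and stretches that escape fall into broad classes. UMRs are rich in CpGs and are often the CpG islands at gene promoters. LMRs hold few CpGs, keep partial methylation and are known as places where transcription factors bind, many of them enhancers. In adipose tissue such elements are bound by factors of fat cell differentiation, and their methylation can differ between brown and white fat. Positions refer to Oar_v3.1, the sheep genome build of the files, and count from 1. Gene annotation and genome sequence of that build were not used here, so regions are given by position and by their UMR.

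An autosomal CpG was covered by 5.22 to 8.00 reads on average, depending on the animal. A CpG was usable when every animal had at least 5 reads, which left 47135 of the 153991 CpGs inside near LMRs, with a mean of 7.85 to 11.0 reads per animal. Of the 11594 near LMRs, 7011 held at least 3 usable CpGs and could be tested one by one, and 1657 held none. The tested near LMRs had a median of 45.8 reads per animal.

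Near LMRs were shorter and denser in CpGs than far LMRs. Their median length was 584 bases (quartiles 374 and 888), against 719 bases for far LMRs. They held a median of 12 CpGs against 10, and 20.9 CpGs per kb against 14.8. The far LMRs closest to the limit, at 5 to 10 kb, were much like near LMRs. Their medians were 595 bases, 11 CpGs and 19.9 CpGs per kb. Far LMRs over 100 kb from a UMR had 924.5 bases, 9 CpGs and 10.0 CpGs per kb. The gap from a near LMR to its UMR had a median of 2233 bases, with quartiles of 1129 and 3565 and a shortest gap of 9. UMRs lay to the right of 5800 near LMRs and to the left of 5794. Of the near LMRs, 10737 lay within 5 kb of a fetal UMR, 10474 of a lamb UMR and 9617 of both. Only 3 shared a base with a DNA methylation valley (DMV), a long unmethylated domain also listed by the authors, and 245 had as nearest UMR one at a DMV.

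LMRs of both stages were packed more densely beside UMRs than elsewhere. Sequence within 5 kb of a UMR, 195 Mb or 8.14% of what lay outside UMRs, held 15.6% of the LMRs of both stages that were free of UMRs. That is 59.5 per Mb within 5 kb against 28.5 per Mb beyond. Part of the difference went with CpG density, since per 10000 CpGs the densities were 40.8 and 31.1. The density per Mb was highest from 1 to 2 kb, at 65.0, and lower in the first 500 bases beside the UMR, at 52.5. Per CpG the dip beside the UMR was larger, at 29.9 per 10000 CpGs in the first 500 bases against 45.9 from 1 to 2 kb. The rule left out 4530 merged LMRs that shared a base with a UMR, and their part in the dip was not tested. Beyond 5 kb the density per Mb declined from 51.3 at 5 to 10 kb to 18.1 at over 100 kb. The share of LMRs listed in both stages was 62.1% within 5 kb, with 55.2% in the first 500 bases. It was 63.1% at 5 to 10 kb and 61.4% at 10 to 20 kb, and lowest over 100 kb, at 46.5%. These densities rest on 1 list per stage, so they are a description with no test, and the way the lists were called beside a UMR is not described in the sources used here.

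**Figure D1:**
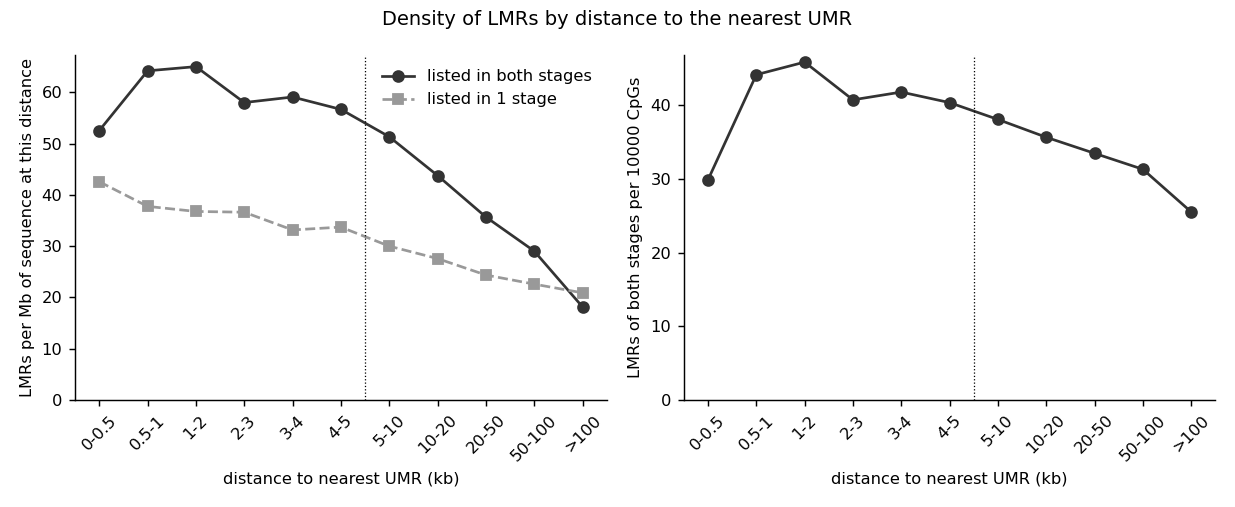
LMRs by distance to the nearest UMR (x axis, classes in kb; dotted line at 5 kb), as number per Mb of sequence at that distance (left, LMRs of both stages in black and of 1 stage in grey) and as number of LMRs of both stages per 10000 CpGs (right). The density of LMRs of both stages peaks at 65.0 per Mb from 1 to 2 kb, is 52.5 in the first 500 bases and falls to 18.1 beyond 100 kb.

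A minority of UMRs had a near LMR, and those were the smaller UMRs. Of 22584 merged UMRs, 8307 (36.8%) were the nearest UMR of at least 1 near LMR. Most of these had a single near LMR (5783), 1909 had 2, 491 had 3, and the most was 7. Near LMRs lay on both sides of 1461 UMRs. UMRs with a near LMR had a median of 1771 bases and 60 CpGs, against 1992 bases and 75 CpGs for the 14277 others. Of UMRs with 30 to 49 CpGs, 46.8% had a near LMR, against 33.3% of those with 50 to 99, 30.3% of those with 100 to under 200 and 34.5% of those with 200 or more. UMRs with a near LMR were in the lists of both stages in 83.0% of cases, and the others in 90.2%.

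Averaged over near LMRs, methylation was higher between the LMR and its UMR than in either of them. Over the 2550 near LMRs under 1 kb from their UMR, the fetal level was 29.0% at the centre, 53.7% at 500 bases toward the UMR and 24.5% at 1500 bases. On the side away from the UMR it was 66.4% at 500 bases. Over the 2664 near LMRs at 1 to 2 kb, the level rose to 73.7% at 900 bases toward the UMR and fell to 20.4% at 2400 bases. The lamb profiles had the same shape, with 29.8% at the centre and 54.0% at 500 bases for the closest class. These are averages over many regions, and 3085 of the 11594 gaps held another LMR. A gap that no list covers is bound to be more methylated than the listed regions beside it, so no test was applied.

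**Figure D2:**
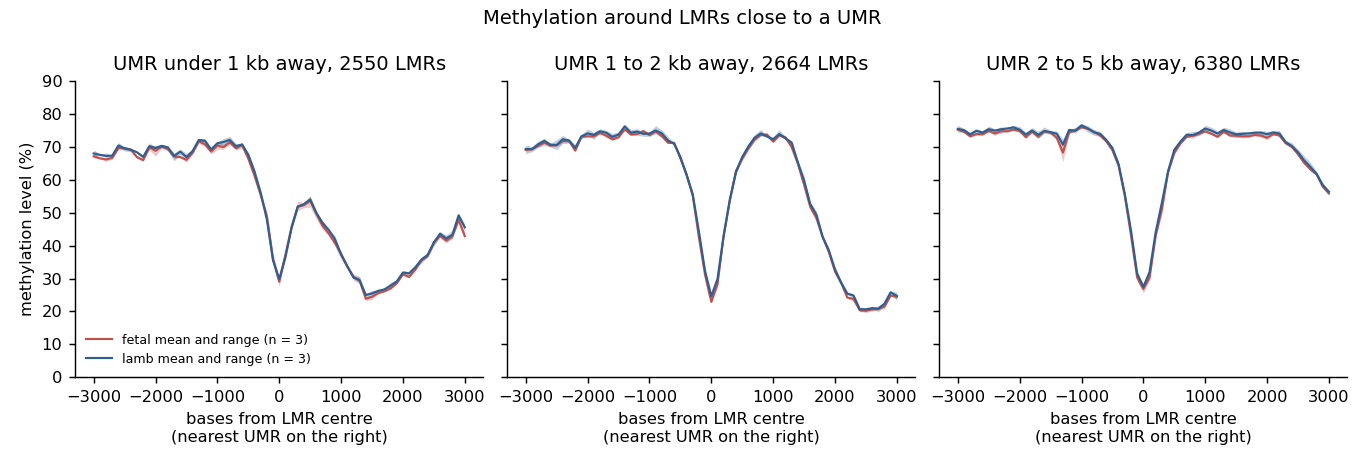
Methylation level (y axis, %) by bases from the centre of near LMRs (x axis, nearest UMR always on the right), for 3 classes of distance to the UMR; lines are stage means and bands the range of the 3 animals of a stage. The fetal ridge between LMR and UMR is at 53.7% at 500 bases when the UMR is under 1 kb away and at 73.7% at 900 bases when it is 1 to 2 kb away, and the fetal and lamb lines run close together throughout.

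Gaps between near LMRs and their UMRs were more methylated where they were wider. The level of the sequence between a near LMR and its UMR was taken over the 8509 gaps that held no other LMR, with a median of 28 CpGs each. In fetuses it was 63.6% for gaps under 500 bases, 70.9% for 500 bases to 1 kb, 75.1% for 1 to 2 kb and 79.6% for 4 to 5 kb. In lambs the same classes had 64.4%, 71.4%, 75.3% and 79.9%. A narrow gap holds only sequence close to a listed edge. Beside near LMRs with gaps of at least 2 kb, the first 250 bases toward the UMR were at 70.9% in fetuses. From 250 to 500 bases the level there was 77.9%. Whether width alone gives the rise was not tested. Over all gaps the fetal animals were at 76.93, 76.83 and 76.84%, and the lambs at 76.50, 77.89 and 77.44%. Lamb 1 was the lowest of the 6 and the other lambs were the highest, so the stages overlapped. The lamb mean was 0.41 points higher (exact permutation test, two-sided, p = 0.4), and 0.101 points higher without lamb 2 and 0.794 without lamb 1. With 3 animals against 3 this test cannot go below 0.1.

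The flanks of a near LMR were not alike on their 2 sides. This was measured over the 4643 near LMRs with a gap of at least 2 kb and no listed region within 1 kb of either edge. In the first 250 bases the side toward the UMR differed from the side away by -0.011 ± 0.425 points (SD over 6 animals), lower in 3 of 6. From 250 to 500 bases the difference was -0.974 ± 0.418 points, with 77.9% toward and 79.0% away from the UMR in fetuses and 78.4% and 79.2% in lambs. The UMR side was also lower from 500 to 750 bases, at -0.752 ± 0.238 points, and from 750 to 1000 bases, at -0.565 ± 0.287 points. Each of these 3 differences had the same sign in 6 of 6 animals (exact sign-flip permutation test, two-sided, p = 0.03125, the smallest 6 animals can give; adjusted over the 4 distances, 0.0417). This comparison was not planned and was adjusted apart from the 8 tests below, where the same sign-flip p gave 0.125. It was not run on far LMRs or under other settings. Inside the near LMRs the dip was centred. In fetuses the middle 50% of the length was at 24.7%, the outer 25% on the UMR side at 33.0% and the outer 25% away from it at 34.9%. Lambs had 26.2%, 34.6% and 36.2% in the same order.

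Over all near LMRs the methylation level was near 30%, and 1.47 points higher in lambs than in fetuses. The fetal animals were at 29.21, 29.73 and 28.36% (29.1% ± 0.693, SD, n = 3). The lambs were at 30.69, 31.31 and 29.70% (30.6% ± 0.816, SD, n = 3). Lamb 3 lay just under fetal animal 2, so the stages overlapped narrowly. A two-sided exact permutation test returned p = 0.2 (adjusted over 8 tests, 0.32), where 0.1 is the smallest it can give, so a difference of this size is not excluded. Among the 11349 near LMRs whose UMR was not at a DMV the stages did not overlap, with the highest fetal animal at 29.717% and the lowest lamb at 29.718% (exact permutation p = 0.1, unadjusted). With a minimum of 10 reads the difference was 0.862 points (exact permutation p = 0.6). Far LMRs had 29.9% ± 0.741 in fetuses and 31.3% ± 0.546 in lambs, a difference of 1.43 points without overlap (exact permutation p = 0.1, adjusted 0.2). The stage difference of near LMRs exceeded that of far LMRs by 0.040 points (exact permutation p = 0.9). The sign of this excess changed under several other settings, given with the limits. Neither stage difference could pass the threshold with 3 animals a stage.

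**Figure D3:**
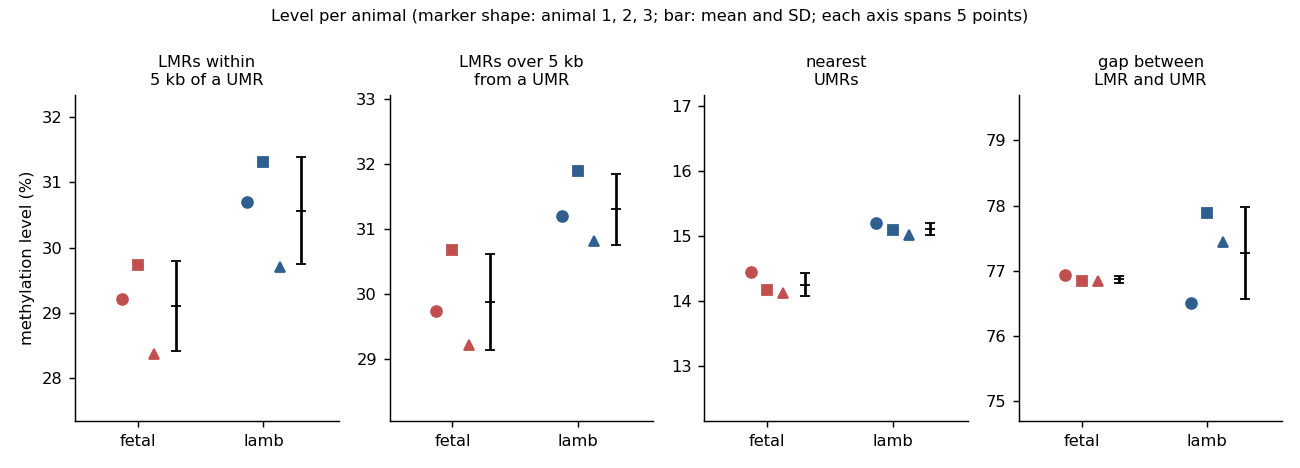
Methylation level (y axis, %; each axis spans 5 points and does not start at 0) of each animal, by stage, in near LMRs, far LMRs, the nearest UMRs of near LMRs and the gaps between; marker shapes are animals 1 to 3 and bars are mean and SD. Stages overlap in near LMRs and gaps, and do not overlap in far LMRs and nearest UMRs.

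Near LMRs were slightly less methylated than the whole set of far LMRs in each animal. The difference was -0.525, -0.938 and -0.848 points in fetal animals 1 to 3 and -0.499, -0.575 and -1.12 points in lambs 1 to 3, a mean of -0.750 ± 0.255 (SD over 6 animals). It was lower in 6 of 6 animals (exact sign-flip permutation p = 0.03125, the smallest possible), and did not pass after adjustment over 8 tests (0.125). With a minimum of 10 reads in place of 5, the difference was 0.104, of the opposite sign. The classes of CpG number gave differences between -0.751 and -0.200 points. LMRs of 10 to 14 CpGs were lower near a UMR in 6 of 6 animals, with a mean difference of -0.714 points, and those of 5 to 9 CpGs in 4 of 6. None of the 4 classes passed an exact sign-flip permutation test after adjustment over them (the lowest adjusted p was 0.0833). Far LMRs at 5000 to 10000 bases had 29.4% in fetuses and 30.8% in lambs, close to the 29.1% and 30.6% of near LMRs. Those at 10000 to 20000 bases had 29.2% and 30.6%, and those at 20000 to 50000 bases 29.3% and 30.7%. The difference was larger against far LMRs at 50000 to 100000 bases, with 30.2% and 31.5%, and over 100000 bases, with 31.0% and 32.6%. Near LMRs were not tested against single distance classes of far LMRs.

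The near LMRs closest to a UMR were the more methylated ones. Within 1 kb of a UMR (2550 LMRs) the fetal animals were at 31.02, 32.48 and 30.03% and the lambs at 32.5, 32.6 and 31.4%. At 2 to 5 kb (6380 LMRs) the fetal animals were at 29.1, 29.2 and 28.1% and the lambs at 30.4, 31.3 and 29.6%. The closer set was higher in 6 of 6 animals, by 2.05 ± 0.659 points (SD over 6; exact sign-flip permutation p = 0.03125, adjusted over 8 tests 0.125). The size of this difference changed with the CpGs used and their weight. It was 1.15 points without CpGs of over 3 times the median coverage, 1.29 points with equal weight per CpG and 11.1 points with a minimum of 10 reads. That minimum left only 61 near LMRs with at least 3 usable CpGs. The first 500 bases stood out among the distance classes, with 33.0% in fetuses and 33.8% in lambs. That class was also the CpG-densest, at 26.9 CpGs per kb, and the 10 best-covered LMRs in it held 16.4% of its reads, against 4.28% over all near LMRs. The median level of single LMRs there was 34.7%, against 31.0 to 32.3% in the classes beyond.

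Levels did not decline evenly with distance. In fetuses they were 29.5% at 500 bases to 1 kb, 27.8% at 1 to 2 kb, 30.04% at 2 to 3 kb, 28.8% at 3 to 4 kb and 27.5% at 4 to 5 kb. Lambs had 30.7%, 29.3%, 31.5%, 30.2% and 29.6% in the same classes. The lamb mean was higher in each of the 6 distance classes, by 0.79 points in the first 500 bases and by 2.06 points at 4 to 5 kb. Stages overlapped in the 4 classes under 3 kb and did not overlap in the 2 classes beyond. At the 5 kb limit itself, the 936 LMRs just inside it (4500 to 5000 bases) had 26.6% in fetuses and 28.8% in lambs, and the 909 just outside it (up to 5500 bases) had 29.6% and 31.2%.

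**Figure D4:**
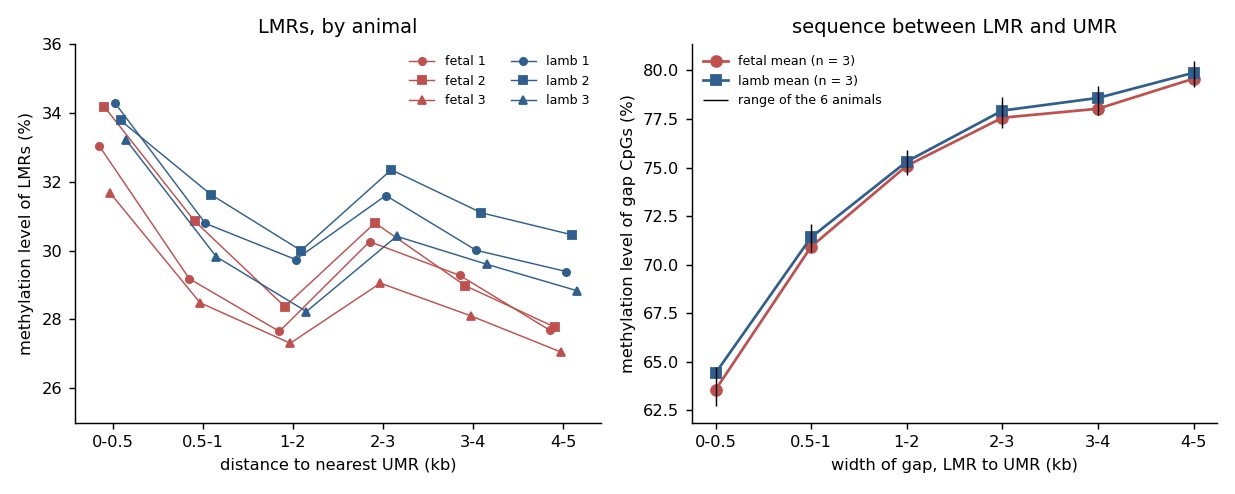
Left, methylation level of near LMRs (y axis, %; axis does not start at 0) in each of the 6 animals by distance to the nearest UMR (x axis, kb); right, level of the gap between LMR and UMR by its width, as stage means with the range of the 6 animals. LMRs in the first 500 bases are highest in each animal, and fetal gaps rise from 63.6% to 79.6% as they widen.

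UMRs beside near LMRs also had a higher mean level in lambs. The nearest UMRs of near LMRs were at 14.45, 14.18 and 14.12% in fetuses and 15.20, 15.09 and 15.02% in lambs, a difference of 0.85 points without overlap (exact permutation p = 0.1, the smallest possible; adjusted 0.2). It was 4.05 points with a minimum of 10 reads, 0.554 points without deeply covered CpGs and 0.580 points with equal weight per CpG. UMRs with no near LMR were lower, at 10.0% ± 0.193 in fetuses and 10.3% ± 0.168 in lambs (SD, n = 3 each). The stage difference of near LMRs exceeded that of their UMRs by 0.61 points (exact permutation p = 0.5), and the excess moved to 0.234 points without lamb 2, 0.305 without fetal animal 3, 0.965 without fetal animal 2 and 1.01 without lamb 3. A near LMR's own level was nearly unrelated to that of its UMR, with Pearson's r of 0.136 across 6489 LMRs, and the stage differences of the pair had r of 0.066. The stage differences of 2 near LMRs beside the same UMR had r of 0.048 across 949 pairs. These correlations are across regions measured in the same 6 libraries and are a description. Single near LMRs had a median of 45.8 reads per animal. Their median SD between animals was 7.40 points, against a median stage difference of 1.32 points. Such noise can lower a correlation of stage differences, and by how much was not tested.

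The lamb minus fetal difference of near LMRs was smaller in each larger class of partner UMR. From UMRs of 30 to 49 CpGs to those of 200 or more it was 1.78, 1.55, 1.24 and -0.674 points. Near LMRs beside UMRs of 30 to 49 CpGs had 29.7% in fetuses and 31.5% in lambs, those beside UMRs of 50 to 99 CpGs 28.8% and 30.3%, and those beside UMRs of 100 to under 200 CpGs 27.5% and 28.8%. Beside the 455 with a UMR of 200 or more CpGs the order was the other way, with 32.1% in fetuses and 31.4% in lambs, and the animals overlapped. The 245 near LMRs whose UMR was at a DMV had 29.6% and 29.8%. Differences between these classes were not tested.

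Single near LMRs spread widely around the mean. Over the 7011 tested, the level averaged over 6 animals had a median of 31.9%, quartiles of 22.2 and 39.3%, and a range from 0 to 72.1%. Levels between 10 and 50% were found in 6311 of them (90.02%), under 10% in 476 and over 50% in 224. The median SD between animals of 1 LMR was 7.40 points. Which LMRs were high and which low was largely shared between animals. Across the 7011, Pearson's r between 2 animals was 0.609 to 0.672 within a stage (6 pairs) and 0.580 to 0.636 between stages (9 pairs), and between the stage means it was 0.799. All of these points share the same regions and libraries, so they carry no p.

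The borders of near LMRs moved between the 2 lists more often than they stayed. Of the 11374 near LMRs made of 1 region of each stage, 2550 (22.4%) had the same start and end in both, against 24.3% of far LMRs. The lamb region was shorter in 4775 and longer in 4040, with median lengths of 513 bases in fetuses and 497 in lambs. Both stages listed 75.4% of the bases. The edge facing the UMR was unmoved in 44.3% and the other edge in 45.2%. When an edge moved, the median shift was 92 bases on the UMR side and 89 on the other. The fetal edge lay farther out in 53.1% of moved edges facing the UMR and in 54.5% of the others.

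The stage difference of a near LMR went with its borders. Near LMRs with the same edges in both lists had 22.4% ± 0.658 in fetuses and 23.2% ± 0.874 in lambs (SD, n = 3 each), a difference of 0.86 points with overlapping stages (exact permutation p = 0.3, unadjusted). Where the lamb region lay inside the fetal one (3816 LMRs), the levels were 27.7% and 33.5%. Where the fetal region lay inside the lamb one (3122 LMRs), they were 32.2% and 28.7%. Where each stuck out on 1 side (1886 LMRs), they were 33.3% and 34.7%. The lists carry the names of the 2 stages, and the sources used here do not say on which animals they were called. The last 3 pairs of values may therefore not be independent of the listing and support nothing by themselves. Over the bases that both stages listed, the difference of all near LMRs was 1.34 points (exact permutation p = 0.2).

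No near LMR passed the test of single regions. Each of 78994 merged UMRs and LMRs with at least 3 usable CpGs was tested with a moderated quasi-binomial model, and counted as called with an adjusted p under 0.05 (Benjamini-Hochberg over all 78994) and at least 10 points between the stage means. None of the 7011 near LMRs was called, against 0.0038% of all regions tested (3 regions). limma and edgeR, run as alternatives, also called 0 near LMRs. At an unadjusted p under 0.05, limma had 580 near LMRs (8.27%, against 10.2% of all regions) and edgeR 574 (8.19%, against 10.3%). The smallest adjusted p of a near LMR was 0.113. At an unadjusted p under 0.05 stood 649 near LMRs (9.26%), under the background of 11.3% over all regions and close to the 8.53% of far LMRs. Of these, 440 were higher in lambs (6.28%, background 7.15%) and 209 lower (2.98%, background 4.1%). The animals of the stages did not overlap in 661 near LMRs higher in lambs (9.43%, background 9.8%) and in 350 lower (4.99%, background 6.15%). With at least 10 points as well, these were 483 (6.89%, background 6.62%) and 233 (3.32%, background 4.01%). These shares are near or under the background and so mark nothing out in near LMRs. The lamb mean was higher in 4032 of 7011 (57.5%, background 56.3%), and the median difference was 1.32 points in near LMRs, 1.32 in far LMRs and 0.823 over all regions tested.

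The share of low p-values was smaller over the bases that both stages listed. When LMRs of both stages were reduced to the bases that both stages listed, 5811 near LMRs kept at least 3 usable CpGs and 368 of them (6.33%) had an unadjusted p under 0.05, against a background of 10.2% and 6.17% of far LMRs. Of the 368, 260 were higher in lambs and 108 lower, and none was called after adjustment. The median difference was 1.19 points in near and 1.27 points in far LMRs. Whole near LMRs that could be tested numbered 7011, and a reduced region can only keep or lose reads. The part of this loss of reads in the smaller share was not tested.

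**Figure D5:**
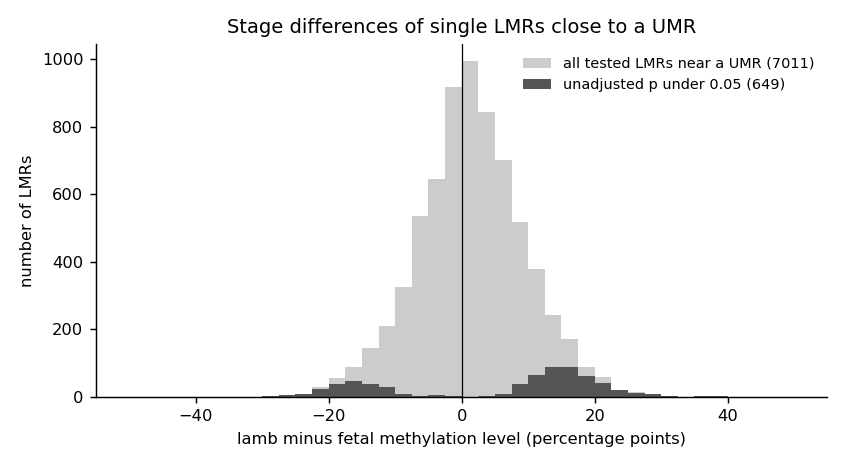
Number of tested near LMRs (y axis) by lamb minus fetal methylation level (x axis, percentage points), for all 7011 (light) and for the 649 with an unadjusted p under 0.05 (dark). The distribution centres slightly above 0, with a median of 1.32 points, and the dark bars lie mostly beyond 10 points on either side, with more above 0 (440) than below (209).

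The near LMRs with the largest differences are given as a description, since they were picked for size among LMRs with at least 5 usable CpGs and no overlap of stages. The largest gain in lambs was on chromosome 17 from 71706046 to 71706490, 1374 bases before a UMR of 33 CpGs. Its 6 usable CpGs had 21.2, 13.6 and 18.8% in fetuses and 56.7, 57.1 and 47.1% in lambs, a difference of 35.7 points (moderated quasi-binomial test, p = 1.72e-05, adjusted 0.113). The fetal list covered 389 bases of it and the lamb list 115, and no usable CpG lay in the bases common to both. With a minimum of 3 reads its difference was 25.9 points over 10 CpGs.

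Chromosome 2 from 9115752 to 9116650, 1603 bases from a UMR of 74 CpGs, came next. It had 23.5, 40.4 and 24.3% in fetuses and 61.6, 57.1 and 60.9% in lambs, while its UMR was at 8.67% in fetuses and 5.72% in lambs. Here too the lamb list held only 145 of the 899 bases. The contrast between the LMR and its UMR was not tested. The other 3 were chromosome 21 from 818394 to 818743, chromosome 13 from 56809748 to 56811040 and chromosome 3 from 57519244 to 57519959, with differences of 29.0, 28.8 and 28.7 points. In each of the 5 the lamb region was shorter than the fetal one. Over the bases common to both lists, chromosome 21 kept 15.7 points on 2 CpGs and chromosome 3 kept 26.1 points on 3 CpGs. The regions on chromosomes 2 and 13, like that on chromosome 17, had no usable CpG there, so 3 of the 5 could not be measured in this way.

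The largest loss in lambs was on chromosome 1 from 186272656 to 186273414, 3005 bases from a UMR of 43 CpGs. Its 7 usable CpGs had 33.3, 37.8 and 57.3% in fetuses and 26.4, 9.43 and 19.3% in lambs, a difference of -24.4 points. Over the 5 CpGs in bases of both lists it was -20.8 points. Chromosome 1 from 789098 to 789336 had 31.3, 41.9 and 34.1% in fetuses and 25.8, 0 and 12.1% in lambs, a difference of -23.1 points. Its 5 usable CpGs all lay in bases of both lists. With a minimum of 3 reads the difference was -15.1 points over 9 CpGs. The other 3 were chromosome 14 from 12446440 to 12447932, chromosome 14 from 47663876 to 47664897 and chromosome 24 from 2381738 to 2382236, with differences of -22.9, -22.0 and -21.8 points. The first of them kept -4.63 points on 1 CpG of both lists and the last -18.1 points on 4. The second had no usable CpG there, and its difference was -8.87 points with a minimum of 3 reads. On chromosome 24 the partner UMR was also lower, at 56.3% ± 11.3 in fetuses and 29.1% ± 10.2 in lambs (SD, n = 3 each), a level far above that of most UMRs and based on 5 usable CpGs.

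The 5 near LMRs with the most usable CpGs had small differences between the stage means, with 1 exception. Chromosome 1 from 270701657 to 270702592 had 24 usable CpGs and a mean of 222 reads per animal, with 24.6% ± 4.79 in fetuses and 23.5% ± 7.50 in lambs (SD, n = 3 each). Chromosome 26 from 31248586 to 31249008, listed with the same edges in both stages, had 33.2% ± 7.78 and 36.1% ± 7.87. Chromosome 15 from 79383460 to 79384186 was the least methylated of them, at 8.27% ± 1.64 and 8.26% ± 2.54 over 23 CpGs, below its own UMR at 24.8% and 20.6%. Chromosome 6 from 103877124 to 103877425 had 42.4, 43.0 and 38.1% in fetuses and 31.2, 35.9 and 47.2% in lambs. The exception was chromosome 5 from 13250800 to 13252677, 387 bases from its UMR. It had 44.8, 40.2 and 42.9% in fetuses and 47.7, 51.7 and 52.8% in lambs, without overlap, a difference of 8.11 points with an adjusted p of 0.401 over all regions in the moderated quasi-binomial test. The signs of the first 4 changed when 1 animal was left out.

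Some UMRs had a cluster of near LMRs around them. The UMR with the most was on chromosome 18 from 42736 to 47481, with 4 near LMRs before it and 3 after it between 37730 and 52082. It was listed in fetuses only, with a level of 34.2% in fetuses and 39.3% in lambs over 9 usable CpGs, so it was as methylated as the LMRs around it. The 4 LMRs before it had differences of 7.88, -0.75, 9.79 and 9.98 points, and the 2 measured LMRs after it -5.81 and -7.97 points. The LMR from 39714 to 40039 had 24.4, 26.1 and 17.4% in fetuses and 33.9, 32.6 and 30.8% in lambs, without overlap.

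Another cluster lay on chromosome 2, with 6 near LMRs from 248161918 to 248171010 around a UMR of both stages at 9.40% in fetuses and 10.8% in lambs. Only 2 of its 6 LMRs had 3 or more usable CpGs, with differences of -18.0 and 7.36 points. The third cluster, on chromosome 17 from 51049481 to 51058770, also surrounded a UMR listed in fetuses only (51055124 to 51055752). That UMR was at 38.6, 38.7 and 35.8% in fetuses and 42.8, 57.9 and 50.9% in lambs, without overlap. Its 4 tested near LMRs had differences of 7.22, -2.78, 6.05 and 3.04 points. In each of the 3 clusters, near LMRs beside the same UMR differed in the sign of their values. No difference within a cluster was tested.

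Few near LMRs met the authors' own differentially methylated regions (DMRs). The authors' deposited lists hold 526 autosomal DMRs called hyper and 496 called hypo. A hyper DMR shared a base with 17 near LMRs (0.147%, against 0.117% of far LMRs and 0.165% of all merged LMRs), and a hypo DMR with 13 (0.112%, against 0.0783% and 0.127%). Of the hyper DMRs 3.61% met a near LMR, and of the hypo DMRs 2.62%. The 10 tested near LMRs at hyper DMRs were all higher in lambs, with a median of 16.0 points, and 8 of the 9 at hypo DMRs were lower, with a median of -16.4 points. The animals behind the DMR lists are not named in the sources used here, so these directions are a description and no independent evidence.

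Those with the most usable CpGs were chromosome 3 from 995422 to 996262 among the hyper DMRs and chromosome 17 from 66538106 to 66538682 among the hypo DMRs. The first had 30.5, 25.0 and 32.9% in fetuses and 46.3, 47.4 and 47.3% in lambs. The second had 50.55, 44.96 and 46.08% in fetuses and 25.6, 24.8 and 36.5% in lambs. Both changed size with the borders. Over the bases of both lists the difference was 7.97 points on 6 CpGs in the first and -1.13 points on 5 CpGs in the second. Chromosome 5 from 13583072 to 13583612, only 107 bases from its UMR, differed in this. It had 49.4, 33.3 and 38.7% in fetuses and 25.4, 31.2 and 16.4% in lambs, a difference of -16.1 points, and -18.2 points over 6 CpGs of both lists. Also named by the rule were 2 regions of chromosome 20. The one at a hyper DMR, from 7843078 to 7843790, had 10.8, 11.1 and 6.94% in fetuses and 15.2, 23.8 and 9.30% in lambs, with overlap, and the same edges in both lists. The one at a hypo DMR, from 49365540 to 49366565, had 58.0, 58.5 and 65.7% in fetuses and 40.9% ± 8.90 (SD, n = 3) in lambs, without overlap, and no usable CpG in the bases of both lists. Chromosome 3 from 57519244 to 57519959, given above, was the other at a hyper DMR.

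Near LMRs were unevenly spread over the chromosomes. They ranged from 1.68 per Mb on chromosome 8 to 14.8 per Mb on chromosome 11. UMRs numbered 5.52 per Mb on chromosome 8 and 23.1 per Mb on chromosome 11. The fewest UMRs per Mb were on chromosome 6, at 4.94, where near LMRs stood at 1.92 per Mb. Per 100 UMRs the near LMRs ranged from 30.3 on chromosome 8 to 67.7 on chromosome 17. Near LMRs were also more common toward chromosome ends, with 15.04% within 2 Mb of an end against 6.79% of far LMRs. Without those 2 Mb, the near LMRs were 1.39 points higher in lambs and differed from far LMRs by -0.792 points in the mean over 6 animals.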

How the data were processed

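Perirenal fat of 3 fetuses and 3 lambs was sequenced as paired 100-base bisulfite reads, per the labels' protocols, and mapped to Oar_v3.1. Oar_v3.1, hg19, BWA and Picard appear, without roles, in the submitters' processing notes. The sources used here do not describe how methylation and the region lists were called, or on which animals. The deposited table holds raw counts of methylated and covering reads per CpG for each animal, and their lists hold positions alone. Positions in the lists count from 0 and were converted to count from 1.

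The level of a set of regions was, per animal, the sum of methylated over the sum of covering reads at usable CpGs, compared by exact permutation or sign-flip tests. Single regions were tested with a logistic model of both kinds of reads, lamb against fetal, quasi-binomial, with a dispersion of at least 1, moderated across all regions by the method of squeezeVar in limma. It was first tried on simulated data, whose results are not given here. limma 3.58.1 (log2 of methylated over unmethylated reads, each plus 1), edgeR 4.0.16 and a replicate block were alternatives, next to a minimum of 3 or of 10 reads, each animal left out in turn, equal weight per CpG, no deeply covered CpGs, bases of both lists, a 2 kb limit and 50% reciprocal overlap. Classes of CpG number, chromosome ends, and bases of both lists in the test of single regions were added after seeing the data. The comparison of flanks was also not among the planned tests. The regions, lists and tests were chosen with earlier results of these data known.

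Regions named were: any called; the 5 per direction with the largest difference among near LMRs with at least 5 usable CpGs and no overlap of stages; the 5 with the most usable CpGs; those beside the 3 UMRs with the most near LMRs; and up to 3 per DMR list with the most usable CpGs. Equal replicate numbers did not pair the animals. Reads carry no molecular identifiers, so depth covers counting error only. Planned searches of sequence motifs and of genes near the regions needed a genome of Oar_v3.1 and were not run. Python 3.11.15, numpy 2.4.6, scipy 1.17.1 and pandas 2.3.3 were used.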

Additional observations from a re-analysis of the deposited data

Results flagged for a closer look

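Chromosome X was left out of the comparisons, and its lists held 286 LMRs of both stages within 5 kb of a UMR, of 7481 merged LMRs on that chromosome. They are given here because they lie in data the comparisons did not use. Over their 1136 usable CpGs the fetal animals were at 35.0, 34.4 and 34.0% and the lambs at 35.96, 35.55 and 35.25%, above the autosomal near LMRs in every animal. The 2745 LMRs of chromosome X over 5 kb from a UMR were at 34.6 to 37.6%. The animals' sex is not stated in the sources used here, and its part in these levels was not tested.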

How the results depend on the processing

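A minimum of 10 reads left 61 near LMRs for the test of single regions, with 6 at an unadjusted p under 0.05 (9.84%, against 8.36% of all regions). A minimum of 3 reads gave 1103 of 10919 (10.1%, against 12.8%), and bases of both lists 368 of 5811 (6.33%, against 10.2%). No alternative called a near LMR. The difference of near from far LMRs was 0.104 points at 10 reads. The stage difference of near LMRs minus that of their UMRs was -3.19 points there. The stage difference of near minus far LMRs was -0.929 points at 10 reads, -0.0040 at 3 reads, -0.126 over bases of both lists, -0.163 with a 2 kb limit, -0.0970 with 50% reciprocal overlap and -0.0681 away from chromosome ends. The cause was not tested. With each animal left out in turn it ran from -0.0756 to 0.234, and was negative without fetal animal 2, lamb 1 or lamb 2. The difference of near from far LMRs then ran from -0.801 to -0.677 and that of the closer from the farther near LMRs from 1.80 to 2.19, both at the smallest p that 5 animals allow in the exact sign-flip permutation test, 0.0625. Among the best-measured near LMRs, the difference on chromosome 1 from 270701657 was 0.944 without fetal animal 2 and 2.20 without lamb 3, and lowest, at -5.18, without lamb 2. On chromosome 26 from 31248586 it was -0.721 without fetal animal 3 and -0.171 without lamb 2, and highest, at 7.31, without lamb 1. On chromosome 15 from 79383460 it was 0.919, 0.997 and 0.410 without fetal animal 2, lamb 1 and lamb 3, and lowest, at -1.43, without lamb 2. On chromosome 6 from 103877124 it was 0.381 without lamb 1 and 0.456 over bases of both lists, and lowest, at -7.64, without lamb 3. Of the other alternatives to the values that answer a comparison, 112 kept direction and side of the threshold, or stayed within 1.5 times a count. With the replicate number as a block, 615 near LMRs (8.77%, against 10.7% of all regions) had an unadjusted p under 0.05 and 0 were called. Same-numbered animals were not paired: their deviations over near LMRs had correlations of -0.0103 to 0.0134, and other pairs -0.0202 to 0.0131.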
